A study of Homo sapiens with 8 samples.

Results

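The JmjC histone demethylases are enzymes that remove methyl groups from histone lysines. The genes described here are KDM2A, KDM2B, KDM3A, KDM4A, KDM4B, KDM4C, KDM5A, KDM5B, KDM6B and JMJD6. JMJD6 is grouped with them here, although it has been described as an arginine demethylase and as a lysyl hydroxylase. Members were chosen by gene name, with earlier results of these data known. Every listed transcript whose RefSeq identifier belongs to a member was taken. This gave 10 genes and 14 transcripts among 14524 named genes and 24812 transcripts. SQ20B, the head and neck squamous cell carcinoma line that was profiled, was grown either in normoxia or in 0.5% oxygen for 16 h, with 4 replicate cultures in each group, and poly(A)-selected RNA was sequenced with strand-specific libraries. The oxygen level of the normoxic cultures was not given in the sources used here. Both groups are the same unmodified line, so the values describe a single cell line.

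A JmjC lysine demethylase needs molecular oxygen, ferrous iron and 2-oxoglutarate: it hydroxylates a methyl group on the lysine, and the group then leaves as formaldehyde. The family is therefore studied as a link between oxygen supply and chromatin. Several of its genes, KDM3A and KDM4B in particular, are known as targets of the hypoxia-inducible factors (HIFs), which bind short DNA elements with the core letters ACGTG or GCGTG. Methylation of H3K4 is found at active promoters and that of H3K36 along transcribed genes, while H3K9 and H3K27 methylation accompany silent chromatin. Messenger RNA was measured here, and neither enzyme activity nor histone methylation was.

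Expression is given as FPKM, the fragments assigned to a transcript scaled by its length and by the mapped fragments of the library, so that levels of different genes can be compared. The deposited table holds 1 FPKM value per condition over its replicates. It gives no spread between replicates and no read counts, and the authors' own tests in it were not used, so no value below has an error or a test and each difference compares 2 values. Changes are log2((hypoxia FPKM + 0.1)/(normoxia FPKM + 0.1)), with the FPKM of all listed transcripts of a gene added first. Genes whose FPKM averaged 0.5 or more over both conditions are counted, and a gene is called higher or lower when the change is at least 1.5-fold. The added 0.1 understates the change of genes with low FPKM.

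Of 12103 genes above the FPKM limit, 9.94% were at least 1.5-fold higher in hypoxia and 11.2% at least 1.5-fold lower, and the median log2 change was -0.07. Scaling both columns to equal FPKM sums moved this median to 0.15 and the share of higher genes among those called from 46.9% to 78.8%, and centring on the median moved that share to 58.6%. A list of 10 hypoxia response genes such as CA9 and EGLN3 had 9 genes above the limit, all of them at least 1.5-fold higher, with a median log2 change of 2.83. The remaining gene, LDHA, had no listed transcript paired with its symbol. Whether it is absent from the deposited values or only unpaired was not examined. Of 8 squamous epithelial markers, KRT14 and PKP1 likewise had no paired transcript. Among the 6 above the limit, KRT5 had the highest mean level, 420 FPKM, and KRT6A the lowest, 4.18 FPKM. Of 7 markers of other cell types, 2 had a paired transcript. CD68 was found at 2.36 FPKM in normoxia and 2.86 in hypoxia, and COL3A1, below the limit, at 0.0489 and 0.107. PTPRC, CD3E, COL1A1, PECAM1 and VWF had no paired transcript.

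Promoter sequences of the members are shown first because HIF targets are known in this family. RefSeq promoters (GRCh38.p14, 250 bases before to 50 bases after each start site) were found for 9 members, some with several start sites. JMJD6 had no entry. ACGTG and GCGTG were searched on both strands, so that a CACGTG sequence counts once on each strand. In the windows below, 30 bases each and read 5′ to 3′ on the strand of the gene, capitals mark the matched letters. The first 4 are from the members with the largest changes, and the last 2 are from members within 1.5-fold. Not every window with a match is printed. KDM2B, also within 1.5-fold, held ACGTG at 1 of its 4 start sites, in a window not printed here.

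KDM3A, chr2:86441332-86441361, plus strand: tccgggaggctgtGCGTGtcttgtgagagc
KDM4B, chr19:4968863-4968892, plus strand: gtcagcgggCACGTGggtgggcgccggcgt
KDM4C, chr9:6757898-6757927, plus strand: tgtttgtaagccCACGTGactcaccaagtg
KDM4C, chr9:6757930-6757959, plus strand: ggccccagcggtCACGTGacggcgcgcgcg
KDM4A, chr1:43650057-43650086, plus strand: aggtggctgcggcGCGTGctcattggctgg
KDM5A, chr12:389458-389487, minus strand: ccaagggcgagctGCGTGgagtcgttggac

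The 9 members with an entry had 15 promoters in all, and 13 of these (86.7%) held at least 1 match. A match was present in 48.4% of 35116 RefSeq promoters of this length, and in 60.6% of those of genes above the FPKM limit. These shares count start sites and not genes, so a gene with several start sites counts more than once. No share per gene was computed over all genes. KDM3A had a single GCGTG, shared by the windows of its 2 annotated start sites. The ACGTG letters were found in 3 of the 15 member promoters (20%), those of KDM4B, KDM4C and 1 of the 4 start sites of KDM2B, beside 25.7% of the promoters of genes above the limit. In KDM4C they occurred as CACGTG at 2 places, beginning 63 and 31 bases before the start site. Promoters were paired with members by symbol and not by transcript, so a start site need not be that of the transcript measured. A match states that these letters are present and not that a factor binds there.

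**Figure D1:**
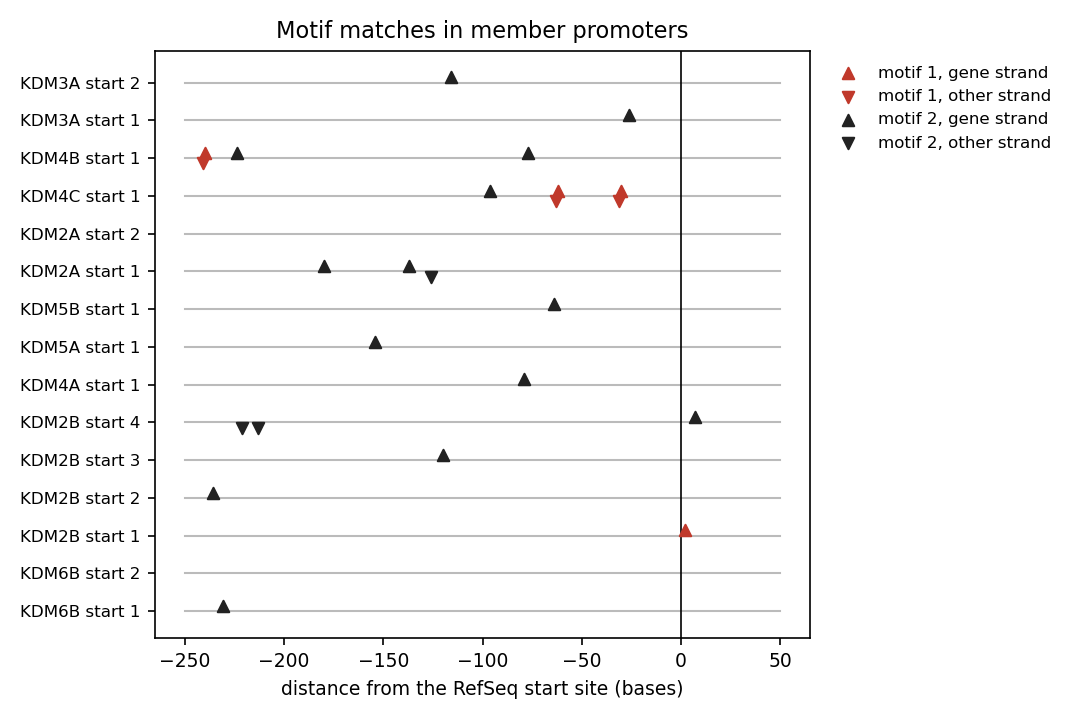
Matches to motif 1 (ACGTG, red) and motif 2 (GCGTG, black) in the RefSeq promoters of 9 members, by distance from the start site in bases. Each line is 1 annotated start site, ordered from the member with the largest log2 change at the top. Upward triangles lie on the strand of the gene and downward triangles on the other strand, and red symbols are seen in KDM4C, KDM4B and 1 start site of KDM2B.

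All members except KDM6B were above the FPKM limit, which left 9 genes. Of these, 3 were at least 1.5-fold higher in hypoxia (KDM3A, KDM4B and KDM4C) and none was 1.5-fold lower, beside 9.94% and 11.2% of all genes. All 9 had a log2 change above 0, as did 43.6% of all genes. This held with quantile normalization, while 8 of 9 lay above 0 with the most abundant transcript only. Equal FPKM sums and centring on the median raise the changes here, so those settings could not bring a member below 0. The median log2 change of the 9 members was 0.46, against -0.07 for all genes. Over all 10 members, without the FPKM limit, the median was 0.39. The member next to the limit on the inside was KDM4C, 1.97-fold higher, and on the outside KDM2A, 1.49-fold higher. At 2-fold, 2 members were higher (KDM3A and KDM4B) and none lower, beside 3.21% and 2.62% of all genes. With a lower limit, a rise of 25% or the equal fall on the log scale, 5 members were higher and none lower, beside 20.6% and 27.8% of all genes, and KDM5A lay just under it. With equal FPKM sums 5 members passed the limit, KDM2A and KDM5B in addition, while 18.6% of all genes did.

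**Figure D2:**
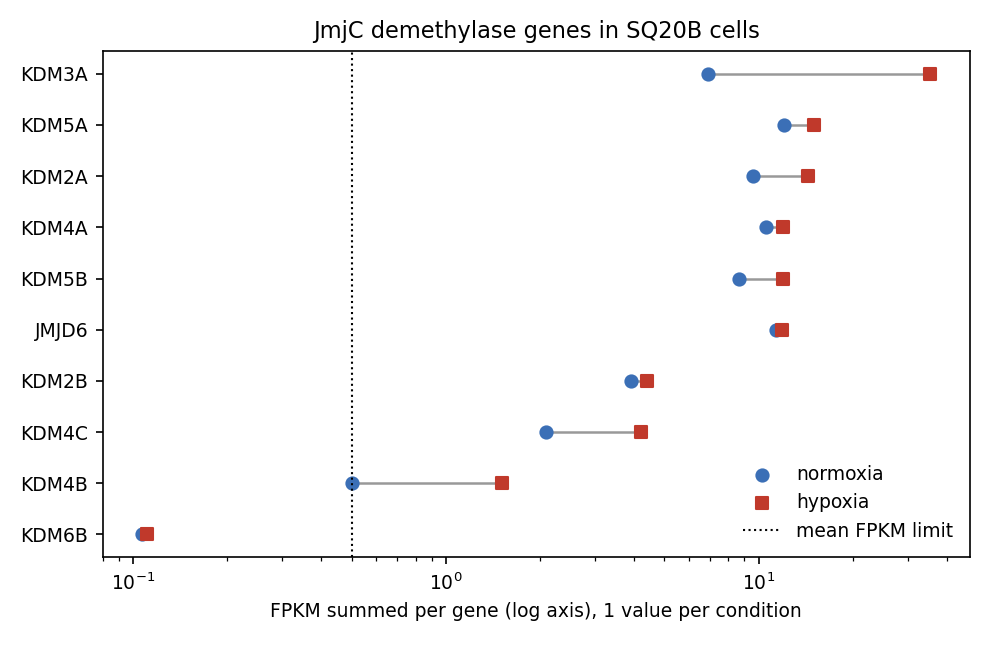
FPKM of the 10 members in normoxia (blue circles) and hypoxia (red squares) on a log axis, ordered by the hypoxia value, with 1 value per condition over 4 replicates and no error bars. The dotted line marks 0.5 FPKM, the limit set on the mean of both values. KDM3A moves from 6.88 to 35.4 FPKM, past every other member.

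KDM3A, on chromosome 2 (86667770 to 86719839, plus strand, GRCh37), demethylates mono- and dimethylated H3K9 and is an established HIF target. Its single listed transcript, NM_001146688, stood at 6.88 FPKM in normoxia and 35.4 FPKM in hypoxia. The log2 change was 2.35, or 5.09-fold, which placed KDM3A at percentile 99.6 of all genes above the limit. Between 2.21 and 2.57 was obtained when the pseudocount or the scaling was altered. KDM3A was the sixth of the members by level in normoxia and the first in hypoxia. It made up 10.5% of the summed FPKM of the members in normoxia and 32.0% in hypoxia.

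The summed FPKM of the 10 members was 65.7 in normoxia and 111 in hypoxia, a difference of 45.1 FPKM, and KDM3A alone differed by 28.5 FPKM. Without KDM3A the sum was 58.8 in normoxia and 75.4 in hypoxia, a ratio of 1.28. Relatives of KDM3A differed less between the conditions. KDM3B, which acts on the same H3K9 states, was found at 21.7 FPKM in normoxia and 27.1 in hypoxia. JMJD1C, another relative, was listed at 22.8 and 27.3 FPKM. A ratio of genes within a condition is not changed by multiplying a column by a single factor, though quantile normalization can change it. On the deposited values the ratio of KDM3A to KDM3B was 0.317 in normoxia and 1.31 in hypoxia. The ratio of KDM3A to JMJD1C was 0.302 and 1.30. KDM3A was thus below KDM3B and JMJD1C in normoxia and above both in hypoxia. HR, also of this subfamily and named here after its values were seen, was listed at 0.658 and 0.576 FPKM (log2 change -0.17).

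The genes nearest to KDM3A in the plane of both log2 levels were POFUT4, INSIG2 and RGS16, over 2 conditions only. POFUT4, also called FUT11, was listed at 6.55 and 39.1 FPKM, at a distance of 0.16 on the log2 scale. INSIG2, a regulator of sterol synthesis, was listed at 5.39 and 33.3 FPKM (distance 0.36), and RGS16, a regulator of G protein signalling, at 8.64 and 31.3 FPKM (distance 0.37).

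KDM4A, KDM4B and KDM4C act on trimethylated H3K9 and H3K36. Their changes were unequal. KDM4B, on chromosome 19 (4969124 to 5153609, plus strand, GRCh37), was the lowest of them, with 0.501 FPKM in normoxia and 1.51 in hypoxia for NM_015015. Its log2 change was 1.42, or 2.67-fold, at percentile 98.6 of all genes. At this low level the size depended on the pseudocount: the log2 change was 0.74 with 1 added and 1.57 with 0.01 added, and the ratio of the FPKM values themselves was 3.01.

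KDM4C, on chromosome 9 (6720863 to 7175648, plus strand, GRCh37), was listed with NM_001146696 at 2.08 FPKM in normoxia and 4.20 in hypoxia. The log2 change was 0.98, or 1.97-fold, at percentile 96.6. Another coding transcript at the same locus, NM_001146694, could not be paired with a symbol through RefSeq and had 0.358 FPKM in normoxia and 0.616 in hypoxia. Adding it to KDM4C, an alternative chosen after the data were seen, gave a log2 change of 0.95.

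KDM4A, on chromosome 1 (44115820 to 44171189, plus strand), was the most abundant of these 3 genes and differed least among them, with 10.6 FPKM in normoxia and 12.0 in hypoxia (log2 change 0.18). The antisense gene KDM4A-AS1 covers 9.12% of the exonic bases of KDM4A and was listed at 2.18 and 1.24 FPKM. A protein-coding gene of GENCODE on the same strand, ENSG00000284989, covers 40.2% of them, and reads of the shared exons cannot be told apart. The ratio of KDM4B to KDM4A was 0.0475 in normoxia and 0.126 in hypoxia, and that of KDM4C to KDM4A was 0.197 and 0.351. KDM4A was the most abundant of the 3 in both conditions.

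**Figure D3:**
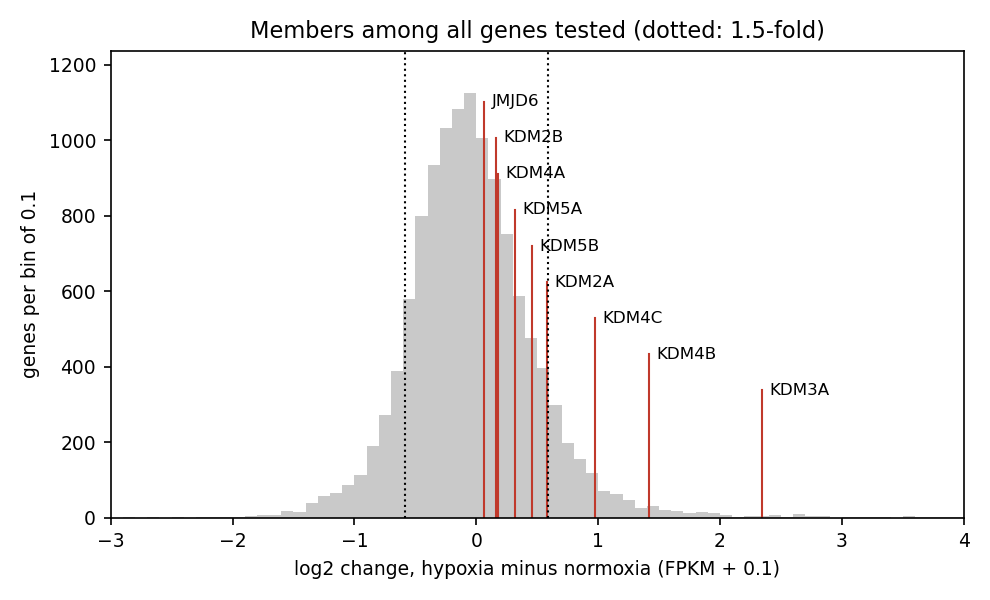
Histogram of the log2 change (hypoxia minus normoxia, FPKM + 0.1) of 12103 genes in bins of 0.1, with the 9 members above the FPKM limit as red lines whose height carries no value. Dotted lines mark 1.5-fold in either direction, and the axis is cut at -3 and 4. All 9 lines lie to the right of 0, and KDM4C, KDM4B and KDM3A lie beyond the upper dotted line.

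KDM2A and KDM2B remove methyl groups from mono- and dimethylated H3K36 and bind unmethylated CpG islands through a zinc finger. KDM2A, on chromosome 11 (66886734 to 67025553, plus strand, GRCh37), had 9.58 FPKM in normoxia and 14.4 in hypoxia (log2 change 0.58) at percentile 89.8. Its 3 listed transcripts differed in direction. The coding transcript NM_012308 was found at 3.06 FPKM in normoxia and 5.997 in hypoxia (log2 change 0.95). The noncoding transcript NR_027473 was listed at 4.10 and 7.11 FPKM, a log2 change of 0.78. The other coding transcript, NM_001256405, was found at 2.42 FPKM in normoxia and 1.26 in hypoxia (log2 change -0.89). NM_012308 and NR_027473 thus lay beyond 1.5-fold on the upper side and NM_001256405 on the lower side.

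Of the summed KDM2A FPKM, NM_001256405 made up 25.2% in normoxia and 8.75% in hypoxia. The share of NM_012308 was 32.0% and 41.7%, and that of NR_027473 was 42.8% and 49.5%, so that the noncoding transcript was the most abundant in both conditions. Among 18190 transcripts above the same FPKM limit, 10.5% were at least 1.5-fold higher and 14.3% at least 1.5-fold lower. Among 3753 genes with 2 or more such transcripts, 109 (2.9%) had transcripts beyond 1.5-fold in both directions. Transcripts of a gene share exons, and the division of reads between them is an estimate by the authors' software whose error was not analysed here.

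KDM2B, on chromosome 12 (121866899 to 122018928, minus strand), recruits a variant Polycomb complex to CpG islands. It was found at 3.92 FPKM in normoxia and 4.39 in hypoxia (log2 change 0.16). NM_032590 held most of it, with 3.64 and 3.86 FPKM. RNF34, on the opposite strand, overlaps 3.22% of the exonic bases of KDM2B and was listed at 32.7 and 25.2 FPKM. NM_001005366 was listed at 0.281 and 0.529 FPKM, below the limit, and its share was 7.17% in normoxia and 12.0% in hypoxia. KDM2B was less abundant than KDM2A in both conditions, at a ratio of 0.409 in normoxia and 0.306 in hypoxia.

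**Figure D4:**
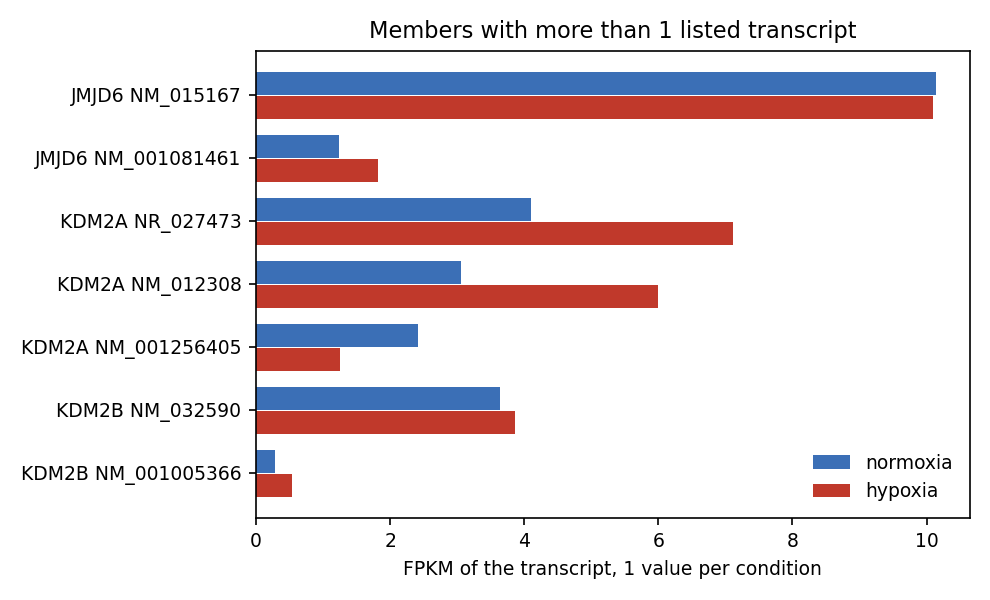
FPKM of each listed transcript of the 3 members with more than 1, JMJD6, KDM2A and KDM2B, in normoxia (blue) and hypoxia (red), with 1 value per condition and no error bars. For KDM2A, NM_012308 and NR_027473 have longer bars in hypoxia and NM_001256405 a shorter bar. The main transcripts of JMJD6 and KDM2B have bars of nearly equal length.

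KDM5A and KDM5B demethylate di- and trimethylated H3K4. KDM5A, on chromosome 12 (389223 to 498486, minus strand), was the most abundant member in normoxia, with 12.0 FPKM, and the second in hypoxia, with 15.0 FPKM. Its log2 change was 0.32. KDM5B, on chromosome 1 (202693623 to 202777615, minus strand), was listed at 8.65 and 11.9 FPKM, a log2 change of 0.46. KDM5C, their relative, was listed at 5.10 and 7.25 FPKM, a log2 change of 0.50. None of these genes reached 1.5-fold, and the ratio of KDM5B to KDM5A was 0.719 in normoxia and 0.794 in hypoxia.

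KDM6B, on chromosome 17 (7737535 to 7758114, plus strand), removes methyl groups from H3K27. It was the lowest member, with 0.107 FPKM in normoxia and 0.111 in hypoxia, both below the limit, so no call was made. KDM6A, which acts on the same mark, was listed at 26.8 FPKM in both conditions, and KDM6B came to 0.00398 of that level in normoxia and 0.00414 in hypoxia.

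JMJD6, on chromosome 17 (74708914 to 74722881, minus strand), has been described both as an arginine demethylase and as a lysyl hydroxylase of splicing factors. It was found at 11.4 FPKM in normoxia and 11.9 in hypoxia, and its log2 change of 0.07 was the smallest among the members above the limit. The main transcript NM_015167 had 10.1 FPKM in each condition, and its own log2 change was -0.01. NM_001081461 had 1.24 and 1.82 FPKM, and its share was 10.9% and 15.3%.

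In hypoxia KDM4A, KDM5B and JMJD6 lay close together, at 12.0, 11.9 and 11.9 FPKM, and without replicate values no order among them can be given. KDM2B and KDM4C, at 4.39 and 4.20 FPKM, likewise lay side by side. In normoxia KDM5A, JMJD6, KDM4A, KDM2A and KDM5B spanned 12.0 to 8.65 FPKM.

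The other proteins with a JmjC domain, from a list of 20 genes that includes hydroxylases without histone activity, were compared next. Of these, 18 were above the limit, and their median log2 change was -0.09, which became 0.12 with equal FPKM sums. Only KDM7A, which demethylates H3K9 and H3K27, was at least 1.5-fold higher, with 0.570 FPKM in normoxia and 1.17 in hypoxia, and it was no longer past the limit with a pseudocount of 1. JMJD4, RIOX2 and RIOX1 were at least 1.5-fold lower. Of all genes, 9.94% were at least 1.5-fold higher and 11.2% lower. JMJD4, a hydroxylase of a translation termination factor, was listed at 3.71 and 1.74 FPKM. RIOX2 and RIOX1, ribosomal protein hydroxylases, were listed at 28.7 and 15.4 FPKM and at 13.5 and 8.76 FPKM. Closer relatives of the members in this list were not among the genes called lower. Log2 changes were 0.92 for KDM7A, 0.50 for KDM5C, 0.32 for KDM3B, 0.26 for JMJD1C and 0.001 for KDM6A. Those of KDM4D, PHF8, PHF2 and HR were -0.06, -0.06, -0.12 and -0.17. Thus 7 of the 18 genes had a log2 change above 0, beside 9 of 9 members and 43.6% of all genes.

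The flavin-dependent demethylases, which use a different chemistry, and their partners had a median log2 change of -0.18 over 7 genes, and it was above 0 with equal FPKM sums (0.04) and with quantile normalization (0.02). RCOR2, a partner protein, was the 1 gene of this list beyond 1.5-fold, with 0.192 FPKM in normoxia and 1.08 in hypoxia. Among the methyltransferases that place the H3K9 mark, 1 of 7 genes was at least 1.5-fold higher and none lower, beside 9.94% and 11.2% of all genes. The median of that list was -0.35. That gene, PRDM2, was listed at 0.417 and 0.803 FPKM and did not pass with a pseudocount of 1. For H3K4, 1 of 8 genes was higher and 1 lower, with a median of 0.01 that was -0.20 without the FPKM limit. KMT2C was listed at 3.16 and 5.15 FPKM, and WDR5, a shared subunit, at 27.9 and 18.3 FPKM. WDR5 was not past the limit with equal FPKM sums, median centring, quantile normalization or a pseudocount of 1, and KMT2C was not with a pseudocount of 1.

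For H3K27, 1 of 8 methyltransferase and PRC2 genes was lower, PHF19, with 26.9 FPKM in normoxia and 17.5 in hypoxia, and none was with equal FPKM sums, median centring or quantile normalization. The median of that list was -0.13, and it was above 0 with equal FPKM sums (0.10) and with quantile normalization (0.03). None of 6 H3K36 methyltransferases was beyond 1.5-fold, and their median was 0.02. Beside each of these lists, 9.94% of all genes were at least 1.5-fold higher and 11.2% lower. These lists describe the levels in this pair of conditions, and no test set them against the members.

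**Figure D5:**
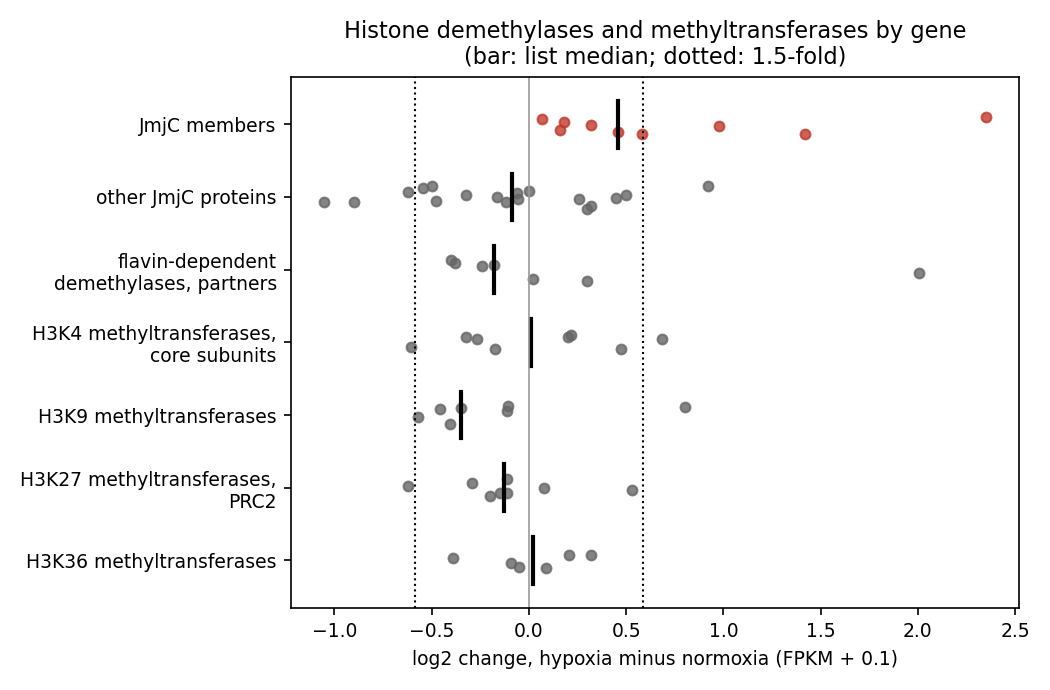
Log2 change (hypoxia minus normoxia, FPKM + 0.1) of each gene above the FPKM limit in the members and in 6 lists of related genes, with 1 point per gene, spread vertically for legibility, and a black bar at the list median. Dotted lines mark 1.5-fold and the grey line marks 0. The member points lie between 0.07 and 2.35, while every other list has points on either side of 0.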

How the data were processed

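RNA from 4 normoxic and 4 hypoxic SQ20B cultures was sequenced. Per the labels, the authors used STAR 2.3.0.1, Cufflinks 2.1.1 and genome build hg19, with RefSeq annotation. The FPKM values deposited by the authors are 1 per condition over its replicates, and the strand setting of the counting was not given in the sources used here, so overlapping genes on opposite strands cannot be told apart. The table's other columns hold the authors' fold changes, test statistics, p-values and q-values and were not used. A planned limma fit needs a value per library and was not run.

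Symbols came from RefSeq (GRCh38.p14), which paired 24289 of 24812 transcripts (97.9%), and gene positions from GENCODE lifted to GRCh37. FPKM was summed per gene, a pseudocount of 0.1 was added, and genes with a mean FPKM under 0.5 were not counted. The table holds no read counts, and the depths of single libraries were not analysed here. The calling step was run on simulated large changes with the same small noise at every level. This checks the code and cannot show how reliable calls are near 1.5-fold or at low FPKM. The members and gene lists were chosen with earlier results of these data known. Named genes are all members, their transcripts with at least 10% of the gene's FPKM in either condition, at most 4 genes beyond 1.5-fold per list, the nearest relatives, the highest and lowest marker, and the 3 genes nearest to the member with the largest rise. No member was lower, so none was taken for a fall. Pseudocount, FPKM limit, scaling, transcript choice and fold limit were varied. Python 3.11.15, numpy 2.4.6, pandas 2.3.3 and matplotlib 3.10.9 were used.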

Additional observations from a re-analysis of the deposited data

How the results depend on the processing

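No paired analysis was possible because the table holds 1 value per condition and no value per replicate, and no replicate could be left out for the same reason. KDM3A, KDM4B and KDM4C stayed at least 1.5-fold higher under each pseudocount, FPKM limit, scaling and choice of transcripts tried. Equal FPKM sums and median centring raise the changes here, so those settings could not take a gene out of this call. KDM2A passed that limit with equal FPKM sums (0.80), with median centring (0.65), with quantile normalization (0.64) and with the most abundant transcript only (0.78), which is the noncoding NR_027473, whereas coding transcripts only gave 0.40, and KDM5B with equal sums (0.68). The log2 change of JMJD6 was -0.0061 with the most abundant transcript only, and that of KDM6B, below the FPKM limit, was -0.21 with quantile normalization. The cause of these differences beyond each setting's own construction was not tested.

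With equal FPKM sums, 5 members were higher and their median was 0.68. The same scaling gave medians of 0.12 for the other JmjC proteins (3 higher), 0.0433 for the flavin-dependent list, 0.24 for H3K4 (2 higher, 0 lower), -0.13 for H3K9, 0.10 for H3K27 (1 higher, 0 lower), 0.24 for H3K36, -0.0375 for the KDM2B partners (1 higher, 0 lower), 0.0157 for 2-oxoglutarate genes (1 lower) and 3.05 for the hypoxia list. Quantile normalization gave medians of 0.0166 for the flavin-dependent list, 0.17 for H3K4 (0 lower), 0.0250 for H3K27 (0 lower), -0.14 for the KDM2B partners, -0.0910 for 2-oxoglutarate genes (1 lower) and 3.11 for the hypoxia list, and 1 lower gene for H3K9. Median centring gave 1 higher and 0 lower genes for H3K27, 0 lower for H3K4 and 1 higher for the KDM2B partners.

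A limit at a rise of 25%, or the equal fall on the log scale, gave 5 higher members, where 20.6% of all genes were higher and 27.8% lower. It gave 3 higher and 7 lower other JmjC genes, 2 lower in the flavin-dependent list, 2 higher and 2 lower for H3K4, 4 lower for H3K9, 1 higher for H3K27, 1 lower for H3K36, 2 higher and 4 lower KDM2B partners and 6 lower 2-oxoglutarate genes. At 2-fold, 2 members were higher, where 3.21% of all genes were higher and 2.62% lower. That limit gave 0 higher and 1 lower other JmjC genes, 0 and 0 for H3K4 and 0 higher for H3K9. It gave 0 lower for H3K27 and for the KDM2B partners, and 1 lower 2-oxoglutarate gene. A pseudocount of 1 left 0 higher genes among the other JmjC proteins, H3K9 and H3K4 (also 0 lower), and one of 0.01 gave 1 higher KDM2B partner. A mean of at least 1 FPKM left 0 higher genes among the other JmjC proteins, the flavin-dependent list and H3K9. Without an FPKM limit the H3K4 median was -0.20. The most abundant transcript only gave 2 lower genes for H3K27, 1 lower for H3K36 and 1 higher KDM2B partner.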

Other observations

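KDM2B works in the variant Polycomb complex PRC1.1, and 8 of 9 of its listed partners were above the FPKM limit. Their median log2 change was -0.26 (-0.04 with equal FPKM sums), against -0.07 for all genes. Of these partners 2 lay above 0 and 6 below, while 43.6% of all genes lay above 0. PCGF1, the subunit that defines this complex, was the only partner beyond 1.5-fold, with 19.7 FPKM in normoxia and 11.5 in hypoxia. With equal FPKM sums it was not past that limit and 1 partner was higher, as was 1 with median centring, with a pseudocount of 0.01 or with the most abundant transcript only. Of all genes, 9.94% were at least 1.5-fold higher and 11.2% lower on the deposited scale. KDM2B itself had a log2 change of 0.16.

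The JmjC reaction consumes 2-oxoglutarate, and 14 genes of its supply and use were above the limit. Their median log2 change was -0.21, against -0.07 for all genes, and became 0.02 with equal FPKM sums. On the deposited scale 12 of the 14 lay below 0 and 2 above, while 43.6% of all genes lay above 0. IDH2, the mitochondrial NADP-dependent isocitrate dehydrogenase, was the 1 gene at least 1.5-fold higher, with 9.23 FPKM in normoxia and 21.4 in hypoxia. SLC25A11, the mitochondrial carrier that exchanges 2-oxoglutarate for malate, was listed at 21.2 and 10.0 FPKM. IDH3A, a subunit of the NAD-dependent enzyme, was listed at 71.3 and 42.5 FPKM, and GOT2, the mitochondrial aspartate aminotransferase, at 113 and 72.3 FPKM. These were the 3 genes at least 1.5-fold lower, of which 1 was left with equal FPKM sums and 1 with quantile normalization. On the deposited scale 9.94% of all genes were at least 1.5-fold higher and 11.2% lower.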
